A study of Homo sapiens with 40 samples.

Results

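The OAS and IFIT genes are the 8 rows of the count table whose name is OAS1, OAS2, OAS3, OASL, IFIT1, IFIT2, IFIT3 or IFIT5, out of 44584 rows. They were chosen by name, and all 8 were found and passed the filter on low counts. RNA-seq counts were followed in 40 libraries from BT474, a HER2-positive luminal breast cancer line, and BT474R, a clone (clone 5) of BT474 cells that had been kept in trastuzumab. Both lines were serum-starved and then given EGF at 50 ng/mL, HRG at 10 ng/mL or water as the vehicle for 1, 12 or 24 h. T0 cells were taken at the end of starvation, before any ligand, so that each line gave 10 groups of 2 libraries. EGF is a ligand of the receptor EGFR, whereas HRG (heregulin) binds HER3 and HER4, and the comparisons ask how each line responds to each ligand over time. Because BT474R is a single clone, a difference between the lines cannot be told apart from a difference between clones, and nothing in the labels says that the 2 libraries of a group came from independent cultures, so p-values measure the spread between these libraries.

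OAS1, OAS2 and OAS3 encode oligoadenylate synthetases, enzymes that bind viral dsRNA and then make short oligoadenylates, a signal that leads to the decay of RNA in the infected cell. OASL has the same fold without the enzyme activity and is known to enhance signalling from the RNA sensor RIG-I. The IFIT proteins are built of tetratricopeptide repeats. Some of them bind foreign RNA with an incompletely methylated cap or a free triphosphate end and block its translation. IFIT1 works in a complex with IFIT2 and IFIT3. All are textbook interferon-stimulated genes: interferon receptors act through JAK kinases on STAT proteins, among them STAT2, which together with IRF9 bind the interferon-stimulated response element (ISRE), and IRF1 and other IRF proteins bind related elements without an interferon receptor.

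The sequences below show where ISRE letters lie in front of these genes, since this element is how the members are known to be switched on. RefSeq's promoter table (GRCh38.p14) held 6 starts for 5 of the 8 members, namely OAS1, OAS3, IFIT1, IFIT3 and IFIT5, and all lie on the plus strand. OAS2, OASL and IFIT2 had no entry. Each line gives the 250 bases that end just before the start. Capitals mark the ISRE core GAAANNGAAA and its reverse complement TTTCNNTTTC, together with the same GAAA sites set 1 base apart, GAAANGAAA or TTTCNTTTC, including their overlaps.

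OAS1 chr12:112906712-112906961: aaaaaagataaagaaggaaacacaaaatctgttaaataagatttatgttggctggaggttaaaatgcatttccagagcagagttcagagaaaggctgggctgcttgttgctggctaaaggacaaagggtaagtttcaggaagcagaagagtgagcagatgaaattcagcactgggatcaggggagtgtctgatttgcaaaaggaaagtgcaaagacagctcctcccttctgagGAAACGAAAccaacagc

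OAS3 chr12:112938224-112938473: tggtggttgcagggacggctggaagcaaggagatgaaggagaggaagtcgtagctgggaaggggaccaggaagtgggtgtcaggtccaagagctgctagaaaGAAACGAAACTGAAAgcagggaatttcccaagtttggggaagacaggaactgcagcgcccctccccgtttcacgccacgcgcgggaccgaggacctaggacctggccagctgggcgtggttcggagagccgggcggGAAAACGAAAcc

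IFIT1 chr10:89392373-89392622: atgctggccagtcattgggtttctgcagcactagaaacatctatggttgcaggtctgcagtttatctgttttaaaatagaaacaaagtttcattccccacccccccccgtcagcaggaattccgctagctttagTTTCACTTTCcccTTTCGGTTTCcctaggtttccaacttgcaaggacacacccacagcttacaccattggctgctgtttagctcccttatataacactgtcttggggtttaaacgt

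IFIT3 first start chr10:89327747-89327996: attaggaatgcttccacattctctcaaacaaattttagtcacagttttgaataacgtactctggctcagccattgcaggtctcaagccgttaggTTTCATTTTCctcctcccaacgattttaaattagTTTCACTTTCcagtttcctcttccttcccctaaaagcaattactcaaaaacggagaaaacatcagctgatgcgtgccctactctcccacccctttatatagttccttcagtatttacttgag

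IFIT3 second start chr10:89332279-89332528: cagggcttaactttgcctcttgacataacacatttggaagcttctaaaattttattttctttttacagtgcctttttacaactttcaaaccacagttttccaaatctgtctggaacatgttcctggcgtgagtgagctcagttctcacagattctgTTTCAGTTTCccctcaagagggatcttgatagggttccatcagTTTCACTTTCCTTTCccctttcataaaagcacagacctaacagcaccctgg

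The ISRE core was found on either strand in 5 of the 6 windows, 2 matches in each, against 3.02% of all 35116 promoter windows of this length. In OAS3 the nearest match ended 3 bases before the start, and in IFIT1 the matches lay 116 to 107 and 103 to 94 bases before it. IFIT5, whose window is chr10:89414318-89414567, held matches 45 to 36 and 19 to 10 bases before its start. OAS1 had no ISRE core in its window, but GAAACGAAA, with the GAAA sites 1 base apart, lay 17 to 9 bases before the start. That spacing occurred in 2.69% of all windows, also in OAS3 and the second IFIT3 start, and was searched after the OAS1 window had been read. The interferon gamma activated element (GAS), TTCNNNGAA, was found in OAS1 only among the 6 windows, as TTCAGAGAA, and in 6.57% of all windows. These are matches of letters and no binding was measured.

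Libraries held 19200632 to 29098915 counts in BT474 and 16794594 to 33387936 in BT474R. Levels are given as CPM, the count per 1000000 counts of its library, and 3 counts, the detection limit used here, corresponded to 0.0899 to 0.179 CPM. All 10 luminal and HER2 markers fixed for the check were above the limit in both lines, with sums of 11700 to 17700 CPM, whereas 8 of 9 immune cell markers in BT474R were at the limit, with sums of 0 to 0.24 CPM. The 3 endothelial markers summed to 8.79 to 15.1 CPM and the 6 fibroblast markers to 163 to 283 CPM in BT474R, the latter through COL1A1, COL1A2 and COL3A1. Within these cultures, fewer expressing cells and less RNA per cell cannot be told apart. The libraries of a group differed most in BT474R with HRG at 24 h and with vehicle at 24 h (mean chi-square per gene 17.9 and 11.4, against 1.48 to 7.63 in the other 18 groups). Some of the calls that rest on these groups, but not all, are therefore also given with each of their libraries left out. HRG and EGF were compared with the same vehicle libraries, which makes those comparisons dependent.

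Before any ligand, BT474R cells held less OAS3 and IFIT5 RNA than BT474 cells, and IFIT1 was called lower on few counts. In BT474 at T0, OAS3 stood at 25.0 and 23.7 CPM, and in BT474R at 3.33 and 3.03 CPM. Every BT474 library was thus far above both BT474R libraries. The log2 difference (BT474R minus BT474) was -2.87 ± 0.136 (SE), with an adjusted p of 1.03e-19 by the quasi-likelihood test of edgeR after Benjamini-Hochberg adjustment over all genes, which is the test behind every adjusted p given here. IFIT5, which binds RNA with a free triphosphate end, measured 2.29 and 2.66 CPM in BT474 and 0.715 and 0.746 CPM in BT474R (log2 difference -1.66 ± 0.473, adjusted p = 0.0036). IFIT1 had 12 and 10 counts in BT474 but 1 and 2 in BT474R, which is within the detection limit. Its ratio of summed CPM, BT474 over BT474R, was 6.36 with a 95% exact counting interval of 1.91 to 33.2, and the call (adjusted p = 0.00831) was lost without the first BT474R library (adjusted p = 0.0521). In all, 3 of the 8 members were called at T0, all lower in BT474R, where 46.9% of all tested genes were called between the lines in either direction. By the count of calls the members were thus not set apart from genes at large. The members' median log2 difference was -0.81, or -0.64 with genes at the limit set to their bound, against 0.00 over all genes.

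The other 5 members were not called at T0. OAS1 measured 0.722 and 1.04 CPM in BT474 and 0.536 and 0.56 CPM in BT474R (log2 difference -0.57, adjusted p = 0.333). IFIT2, the partner of IFIT1 and IFIT3, measured 0.482 and 0.677 CPM against 0.179 and 0.466 CPM (log2 difference -0.66, adjusted p = 0.292). For both genes the BT474R libraries were the lower ones at T0 without overlap, but the difference was not called. The share of all genes whose T0 libraries separate in this way was not counted. OAS2, OASL and IFIT3 had at most 12 counts in any T0 library. With so few counts the ratio of BT474 over BT474R was known only loosely, at 1.08 (95% exact counting interval 0.233 to 5.46) for OAS2 and 1.63 (0.647 to 4.43) for OASL, and both lines lay within the limit for IFIT3. In vehicle at 1 h the ratio of BT474R over BT474 was 0.0357 (0.000862 to 0.222) for OAS2 and 0.107 (0.0118 to 0.466) for IFIT3, lower in BT474R beyond counting error. For OAS1 the same ratio in vehicle at 1 h was 1.11 (0.738 to 1.7). At 12 and 24 h it was 1.48 (0.933 to 2.37) and 1.45 (0.89 to 2.4), so its T0 order was not kept. For IFIT2 the ratios in vehicle at 1, 12 and 24 h were 0.235 (0.108 to 0.474), 0.348 (0.179 to 0.641) and 0.382 (0.208 to 0.675).

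Time in starvation medium alone left the members without a call. From T0 to vehicle at 24 h, 0 of 8 members were called in BT474 and 0 of 8 in BT474R by edgeR, against 11.4% and 13.7% of all genes, with 3 and 1 members at an unadjusted p below 0.05, and none of the 4 BT474R fits that left out a library called a member. DESeq2, whose filter on the mean count leaves some genes without an adjusted p, gave one to 2 and 5 of the 8 members and called 0 of them. OAS3 in BT474 came nearest, from 25.0 and 23.7 CPM at T0 to 29.4 and 29.1 CPM in vehicle at 24 h (log2 change 0.23 ± 0.0792, adjusted p = 0.0526). The vehicle libraries were the higher ones, and 5 of the 7 other settings of the analysis called this change.

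**Figure D1:**
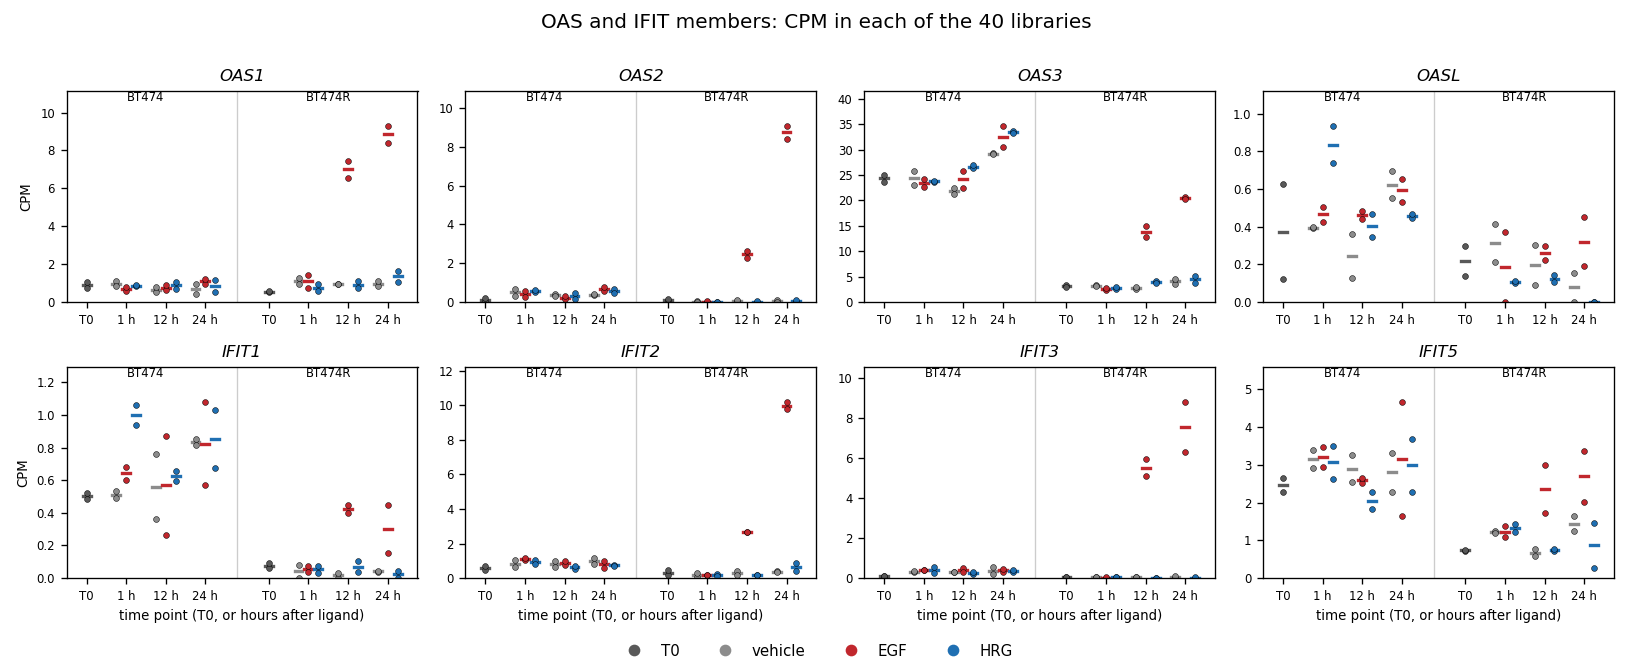
CPM of the 8 members in every library. Each panel is 1 gene, with time on the x axis and CPM on the y axis; points are single libraries, short bars mark the mean of 2 libraries, colours give the ligand, and BT474 stands left and BT474R right. With EGF at 12 and 24 h the BT474R libraries of OAS1, OAS2, IFIT2 and IFIT3 lie above all others, from 2.25 CPM (OAS2, 12 h) to 10.2 CPM (IFIT2, 24 h), whereas OAS3 of BT474R with EGF stays at 12.8 to 20.7 CPM, below the 21.3 to 34.7 CPM of BT474.

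With EGF, most members rose in BT474R by 12 h and stayed raised at 24 h. At 1 h, 0 of 8 members were called by edgeR and 0 of the 7 with an adjusted p by DESeq2, 0 had an unadjusted p below 0.05, and 0.457% of all genes were called. OAS2, IFIT1 and IFIT3 had at most 2 counts in each EGF library at 1 h. At 12 h, 7 of 8 members rose, all but OASL, where 12.0% of all genes were called in either direction. At 24 h, 6 of 8 rose, all but OASL and IFIT5, against 17.3% of all genes. Without either of the vehicle libraries at 24 h, OAS1, OAS2, OAS3, IFIT2 and IFIT3 were still called and IFIT1 was not. The median log2 change of the 8 members was 3.10 at 12 h and 3.03 at 24 h (2.65 and 2.86 with genes at the limit set to their bound), against -0.01 over all genes at both times.

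Among the synthetases, OAS1 went from 0.969 and 0.933 CPM in vehicle at 12 h to 7.46 and 6.57 CPM with EGF. At 24 h it went from 0.819 and 1.1 CPM to 9.3 and 8.41 CPM. All 4 EGF libraries of OAS1 at 12 and 24 h were above each of the 16 other BT474R libraries, which reached at most 1.65 CPM. The log2 change was 2.94 ± 0.247 at 12 h (adjusted p = 2.3e-08) and 3.30 ± 0.247 at 24 h (adjusted p = 2.77e-09). Leaving out each of the 4 libraries in turn gave 24 h values from 3.06 to 3.55 for OAS1, 2.21 to 2.65 for OAS3, 4.76 to 4.82 for IFIT2, 6.84 to 10.83 for OAS2 and 6.34 to 10.64 for IFIT3.

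OAS2, the synthetase of intermediate size, was almost absent from BT474R until EGF was given. Vehicle libraries held 1 and 3 counts at 12 h and 2 and 0 at 24 h, whereas EGF libraries held 71 and 51 counts (2.65 and 2.25 CPM) at 12 h and 222 and 221 counts (9.09 and 8.41 CPM) at 24 h. Nothing but EGF at 12 or 24 h brought OAS2 above 3 counts in a BT474R library. The ratio of EGF over vehicle was 32.5 at 12 h (95% exact counting interval 12.4 to 121) and 207 at 24 h (57.1 to 1720), with adjusted p of 2.86e-07 and 1.37e-10. The upper ends of these intervals are wide since the vehicle counts are so few, and the intervals cover counting error only.

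OAS3, the largest synthetase, was already expressed in BT474R. It went from 2.64 and 2.93 CPM in vehicle at 12 h to 14.9 and 12.8 CPM with EGF, and at 24 h from 3.55 and 4.58 CPM to 20.7 and 20.3 CPM. EGF and vehicle libraries did not overlap at either time. The log2 change was 2.36 ± 0.16 (adjusted p = 9.46e-10) and 2.42 ± 0.15 (adjusted p = 1.37e-10).

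OASL stood apart from the other members. Vehicle libraries held 2 and 9 counts at 12 h and EGF libraries 8 and 5, and at 24 h the counts were 4 and 0 in vehicle and 11 and 5 with EGF. The groups overlapped at 12 h, and at 24 h both EGF libraries were higher by a few counts. Neither time was called (log2 change 0.39 ± 0.861, adjusted p = 0.844, and 1.95 ± 1.02, adjusted p = 0.222), and the ratio at 24 h, 3.75, had a counting interval of 1.21 to 15.4.

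Of the IFIT members, IFIT3, which stabilises IFIT1 on RNA, changed most on the log2 scale. It had 1 and 1 counts in vehicle at 12 h and 0 and 2 at 24 h, and with EGF 159 and 116 counts (5.93 and 5.12 CPM) at 12 h and 215 and 166 counts (8.8 and 6.32 CPM) at 24 h. No BT474R library outside EGF at 12 and 24 h held more than 2 counts of IFIT3. The ratio of EGF over vehicle was 146 (40.2 to 1220) at 12 h and 178 (49.1 to 1480) at 24 h, with adjusted p of 8.57e-10 and 1.37e-10.

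IFIT2, which joins IFIT3 in the complex, measured 0.397 and 0.2 CPM in vehicle at 12 h and 2.65 and 2.69 CPM with EGF, and at 24 h 0.39 and 0.366 CPM in vehicle and 10.2 and 9.82 CPM with EGF. EGF libraries were above vehicle at 12 h and higher again at 24 h. The log2 change was 3.26 ± 0.344 (adjusted p = 6.29e-07) and 4.79 ± 0.283 (adjusted p = 7.66e-11).

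IFIT1 remained low. Its vehicle libraries had 0 and 1 counts at 12 h and 1 and 1 at 24 h, and its EGF libraries had 12 and 9 counts at 12 h and 11 and 4 at 24 h, or 0.152 to 0.45 CPM. The groups did not overlap, but few counts carry the difference. The ratio was 22.4 (3.60 to 925) at 12 h and 7.03 (1.63 to 63.3) at 24 h. The call at 12 h (adjusted p = 0.0061) was lost without the first vehicle library (adjusted p = 0.0652), and that at 24 h (adjusted p = 0.0473) was lost in 3 of 4 fits that left out a library, with only the groups compared (0.0828), with no filter (0.0654) and with the replicate block (0.0530). DESeq2 gave IFIT1 no adjusted p at either time.

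IFIT5 responded least among the members that were called. It measured 0.573 and 0.766 CPM in vehicle at 12 h and 2.98 and 1.72 CPM with EGF, and at 24 h 1.64 and 1.24 CPM in vehicle and 3.36 and 2.02 CPM with EGF. EGF libraries were higher at both times, with a wider spread than for the synthetases. The log2 change was 1.86 ± 0.407 at 12 h (adjusted p = 0.00348) and 0.97 ± 0.355 at 24 h (adjusted p = 0.0655). The 12 h call was lost without the first EGF library (log2 change 1.38, adjusted p = 0.125), and the 24 h value passed with no filter (adjusted p = 0.0014), with only the groups compared (0.0485), with the replicate block (0.0440) and without the second EGF library (0.0400).

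The EGF effect itself was compared between 12 and 24 h in BT474R. By edgeR 0 of 8 members were called, where 0.185% of all genes were called, and 2 members had an unadjusted p below 0.05. DESeq2 gave an adjusted p to 1 member, OAS3, and did not call it. These were IFIT2, with a log2 change of 1.53 ± 0.574 larger at 24 h (adjusted p = 0.456), and OAS2, with 2.64 ± 1.26 (adjusted p = 0.612). Between the EGF libraries themselves, the ratio of 24 h over 12 h was 3.74 (counting interval 3.08 to 4.57) for IFIT2 and 3.55 (2.90 to 4.37) for OAS2, against 1.25 for OAS1, 1.35 for IFIT3, 1.47 for OAS3 and 0.697 for IFIT1. The counting intervals do not cover the spread between cultures.

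**Figure D2:**
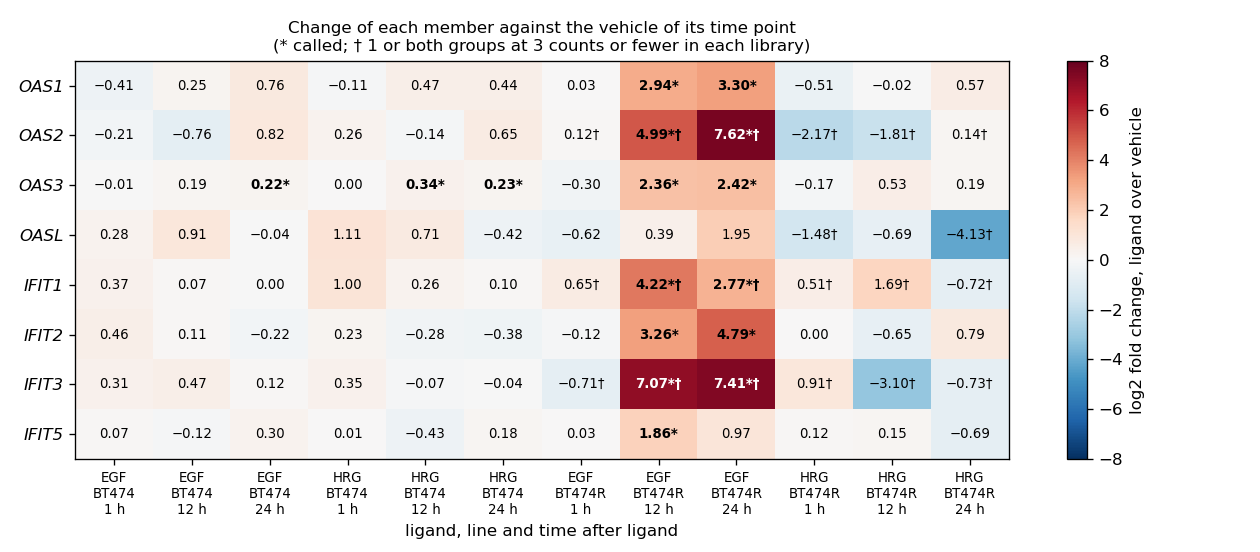
Log2 fold changes of the 8 members (rows) in the fitted comparisons (columns), with the value printed in each cell and the colour scale in log2 units. An asterisk marks a call at an adjusted p below 0.05 and a dagger a comparison in which a group lay within 3 counts in each library. The columns of EGF in BT474R at 12 and 24 h hold 7 and 6 calls, all upward, whereas the columns of HRG in BT474R hold none.

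HRG did not raise the members of BT474R past the threshold at any time. At 1, 12 and 24 h edgeR called 0, 0 and 0 of 8 members, DESeq2 called 0 of the 8, 6 and 3 with an adjusted p, and 0.169%, 4.12% and 2.78% of all genes were called. An unadjusted p below 0.05 was seen for 0, 1 and 0 members. The 1 member was OAS3 at 12 h, with 4.18 and 3.75 CPM with HRG and 2.64 and 2.93 CPM in vehicle. HRG libraries were the higher ones (log2 change 0.53 ± 0.183, adjusted p = 0.121), and the change was called with no filter (adjusted p = 0.0444) and when both lines were fitted together (0.0401). OAS2 had at most 2 counts and IFIT3 at most 2 counts in each HRG library of BT474R. IFIT5 at 24 h differed between its HRG libraries, 1.46 and 0.268 CPM against 1.64 and 1.24 CPM in vehicle, and fell only without the first HRG library (log2 change -2.36, adjusted p = 0.00643).

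Set directly against EGF in BT474R, HRG gave lower levels for 6 of 8 members at 12 h, where 1.42% of all genes were called, and for 6 of 8 at 24 h, where 5.18% were called. The same 6 genes, OAS1, OAS2, OAS3, IFIT2, IFIT3 and IFIT5, were called at both times. OAS1 with HRG measured 0.75 and 1.09 CPM at 12 h and 1.05 and 1.65 CPM at 24 h, all below its EGF libraries (log2 difference -2.95 ± 0.245 and -2.73 ± 0.235). IFIT2 with HRG measured 0.179 and 0.175 CPM at 12 h and 0.87 and 0.401 CPM at 24 h, again below EGF (log2 difference -3.90 ± 0.372 and -4.00 ± 0.263). IFIT3 had 0 counts in both HRG libraries at 12 h, so that EGF was at least 52.0-fold higher against a limit of 3 counts per library. The call for IFIT5 at 12 h (log2 difference -1.70, adjusted p = 0.0265) was lost in 3 of 4 fits without a library, and at 24 h (log2 difference -1.66, adjusted p = 0.013) it was lost without the second HRG library (-0.92, adjusted p = 0.106) or the first EGF library (-1.25, adjusted p = 0.208). OASL had 0 counts in both HRG libraries at 24 h and EGF was at least 2.36-fold higher, which was not called (adjusted p = 0.0738), nor was IFIT1 (adjusted p = 0.0714). OASL passed with no filter (adjusted p = 0.00267), with the replicate block (0.0465) and with both lines in 1 fit (0.0213). IFIT1 passed with filterByExpr (adjusted p = 0.0471), with both lines in 1 fit (0.0363) and without the second EGF library (0.0469). With only the 24 h HRG and EGF libraries in the fit, none of the 6 passed (adjusted p 0.0925 to 0.6) and no gene of the table did.

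In BT474 the only member called with either ligand was OAS3. EGF called 0, 0 and 1 of 8 members at 1, 12 and 24 h by edgeR, against 2.19%, 16.0% and 16.4% of all genes, with 0, 1 and 1 members at an unadjusted p below 0.05. DESeq2 called 0 of the 2, 4 and 5 members with an adjusted p. HRG called 0, 1 and 1, against 2.77%, 25.8% and 24.1% of all genes, with 2, 1 and 1 at an unadjusted p below 0.05, and DESeq2 called 0 of 6, 1 of 7 and 1 of 5 with an adjusted p. With HRG at 12 h OAS3 measured 26.3 and 27.0 CPM against 21.3 and 22.5 CPM in vehicle (log2 change 0.34 ± 0.078, adjusted p = 0.000818). At 24 h it measured 33.6 and 33.2 CPM with HRG, 34.7 and 30.5 CPM with EGF, and 29.4 and 29.1 CPM in vehicle. Ligand libraries were above vehicle each time, by log2 changes of 0.23 ± 0.0746 with HRG (adjusted p = 0.017) and 0.22 ± 0.0755 with EGF (adjusted p = 0.042). The HRG call at 24 h was lost without the second vehicle library (adjusted p = 0.106) or the first HRG library (0.112). The EGF call was lost with DESeq2 (adjusted p = 0.0887), with only the groups compared (0.116), with both lines in 1 fit (0.106) and in 3 of 4 fits without a library.

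Apart from OAS3 and IFIT5, no member passed 1.22 CPM in BT474. OAS1 ranged from 0.409 to 1.22 CPM over the 20 BT474 libraries, IFIT2 from 0.482 to 1.15 CPM, IFIT1 from 0.265 to 1.08 CPM, OASL from 0.12 to 0.936 CPM, and OAS2 from 0.0401 to 0.75 CPM. The ratio of OAS2 with EGF at 24 h over 12 h was 3.13 (counting interval 1.45 to 7.47). IFIT5 with EGF at 24 h differed between its libraries, 4.66 and 1.64 CPM, and was called only without the second of them (log2 change 0.815, adjusted p = 0.0108). OASL and IFIT1 were the members with an unadjusted p below 0.05 with HRG at 1 h (log2 change 1.11 ± 0.465 and 1.00 ± 0.428, adjusted p = 0.294 and 0.312). HRG against EGF called 0 of 8 at 12 h and 0 at 24 h, where 2.17% and 0.768% of all genes were called, with 0 members at an unadjusted p below 0.05 at both times. DESeq2 gave an adjusted p to 2 members at 12 h, neither of them called, and to none at 24 h. The EGF effect at 24 h against 12 h gave 0 of 8 calls by edgeR, 0 of the 2 members with an adjusted p by DESeq2 and 0 at an unadjusted p below 0.05, where 0.517% of all genes were called.

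The difference between the lines in the EGF effect was tested directly, as the EGF effect in BT474R minus that in BT474. At 1 h it was called for 0 of 8 members by edgeR and 0 of the 6 with an adjusted p by DESeq2, with 0 at an unadjusted p below 0.05 and 0.138% of all genes called. At 12 h it was called for 6 of 8, OAS1, OAS2, OAS3, IFIT1, IFIT2 and IFIT3, all with the larger effect in BT474R, against 1.96% of all genes. At 24 h it was called for 5 of 8, the same genes without IFIT1, against 4.01%. The OAS3 difference was 2.16 ± 0.17 on the log2 scale at 12 h (adjusted p = 8.45e-11) and 2.21 ± 0.157 at 24 h (adjusted p = 6.48e-12). For IFIT2 it was 3.13 ± 0.509 (adjusted p = 0.000139) and 5.0 ± 0.475 (adjusted p = 2.18e-09). The values for OAS2 (5.73 and 6.80) and IFIT3 (6.58 and 7.28) depend on the prior count, as their BT474R vehicle libraries lay within the limit. OAS1 was called at 12 h (2.67 ± 0.523, adjusted p = 0.00167) and 24 h (2.53 ± 0.52, adjusted p = 0.00155), and lost without the second BT474 vehicle library at 12 h (adjusted p = 0.0882) or the first at 24 h (0.19). OAS2, OAS3, IFIT2 and IFIT3 were called at 24 h without each library in turn. The IFIT1 call (adjusted p = 0.041) was lost in 6 of 8 fits without a library, and DESeq2 gave it no adjusted p. IFIT5 at 12 h (adjusted p = 0.0568) passed with DESeq2 (0.0394), no filter (4.46e-06), the replicate block (0.0336), only the groups compared (7.94e-05) and without the second BT474R EGF library (0.0348).

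For HRG the lines were not shown to differ in any member. At 1, 12 and 24 h edgeR called 0, 0 and 0 of 8, DESeq2 called 0 of the 4, 1 and 3 with an adjusted p, and 1, 0 and 0 had an unadjusted p below 0.05, against 0.544%, 4.07% and 3.33% of all genes. The 1 member was OASL at 1 h (log2 difference -2.60 ± 1.00, adjusted p = 0.584). Without the first BT474R HRG library at 24 h, IFIT5 passed with -2.54 (adjusted p = 0.0317).

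Levels in BT474R with EGF can be set beside the whole range of BT474. The lines already differed at T0, where 46.9% of all tested genes were called. The share of all genes whose EGF libraries lie outside that range was not counted. For OAS1, OAS2, IFIT2 and IFIT3 all 4 EGF libraries at 12 and 24 h were above all 20 BT474 libraries, with IFIT3 at 5.12 to 8.8 CPM against 0.104 to 0.553 CPM. For OAS3 they stayed below all 20, at 12.8 to 20.7 CPM against 21.3 to 34.7 CPM. OASL and IFIT5 fell inside the BT474 range. IFIT1 did so at 12 h, but at 24 h its lower EGF library, at 0.152 CPM, was below the BT474 minimum of 0.265 CPM. The order of the lines thus differed between members after EGF, while at T0 all 8 group means were lower in BT474R. Only 3 of these were called, and the order of OAS2 and IFIT3 at T0 rested on at most 4 counts per library.

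Summed over genes, which weights each gene by its length and level, the 4 OAS members reached 38.4 ± 1.62 CPM (SD, n = 2) in BT474R with EGF at 24 h, from 5.14 ± 0.762 CPM in vehicle. BT474 with EGF at 24 h had 34.9 ± 2.6 CPM, most of it OAS3. The 4 IFIT members summed to 20.5 ± 3.15 CPM in BT474R with EGF at 24 h and 1.9 ± 0.231 CPM in vehicle, against 5.16 ± 1.93 CPM in BT474 with EGF. After 24 h of EGF the sums of both families were higher in each BT474R library, at 39.6 and 37.3 CPM against 36.8 and 33.1 CPM for OAS, and at 22.8 and 18.3 CPM against 6.52 and 3.8 CPM for IFIT.

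**Figure D3:**
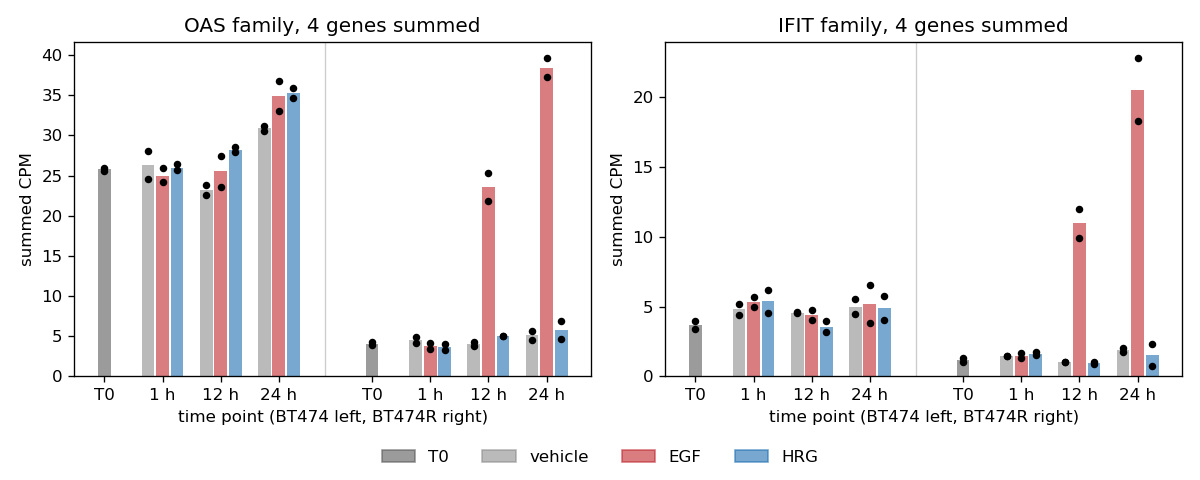
Summed CPM of the 4 OAS members and of the 4 IFIT members in each of the 20 groups. Bars start at 0 and give the mean of 2 libraries, and points give the single libraries. In BT474R the OAS sum with EGF at 24 h, 38.4 CPM, is near the 34.9 CPM of BT474, whereas the IFIT sum, 20.5 CPM, is above the 5.16 CPM of BT474.

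Factors known to drive ISRE genes, namely IRF1, IRF9, IRF7 and STAT2, rose with EGF in BT474R as well. IRF1, which can act without an interferon receptor, was called at 1 h: vehicle libraries measured 2.0 and 3.56 CPM and EGF libraries 14.7 and 11.1 CPM. Its log2 change was 2.18 ± 0.219 at 1 h (adjusted p = 1.7e-06), 3.13 ± 0.235 at 12 h and 2.94 ± 0.242 at 24 h. At 1 h IRF1 was thus above vehicle while 0 of 8 members were called. Whether any of these factors acts on the members was not tested. IRF9, the DNA-binding part of the complex it forms with STAT2, went from 5.15 and 4.12 CPM in vehicle to 12.0 and 13.2 CPM with EGF at 24 h (log2 change 1.52 ± 0.116, adjusted p = 3.51e-09). IRF7 went from 2.34 and 3.48 CPM to 5.28 and 5.29 CPM (log2 change 0.96 ± 0.204, adjusted p = 0.00187). STAT2 overlapped between vehicle, at 56.8 and 42.0 CPM, and EGF, at 55.0 and 58.9 CPM, though it was called (0.29 ± 0.0848, adjusted p = 0.0203). The STAT2 call was lost without the second vehicle library (0.13, adjusted p = 0.323) or the second EGF library (0.25, adjusted p = 0.155), and the IRF7 call without the first vehicle library (0.66, adjusted p = 0.0762). IRF9 and IRF1 were called without either vehicle library (1.67 and 1.42 for IRF9, 2.63 and 3.28 for IRF1).

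In BT474 at 24 h of EGF, IRF9, IRF1 and IRF7 were not called (log2 changes 0.10, -0.15 and -0.01), and STAT2 fell by 0.42 (adjusted p = 9.35e-08). With HRG in BT474R, none of these 4 factors was called at 24 h, although STAT2 was without the second vehicle library (-0.29, adjusted p = 0.0421), and STAT2 fell by 0.36 at 12 h (adjusted p = 0.0157). STAT2, IRF9 and IRF1 at 12 h, and these and IRF7 at 24 h, had a larger EGF effect in BT474R than in BT474 by the test of that difference. Of these 24 h calls, that for IRF7 was lost without the first BT474R vehicle library (0.65, adjusted p = 0.291) and held only without the first BT474 or the second BT474R vehicle library. The IRF1 difference was already 2.14 ± 0.258 at 1 h (adjusted p = 3.9e-06). At T0 IRF1 was lower in BT474R, at 1.79 and 1.91 CPM against 5.26 and 4.74 CPM.

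**Figure D4:**
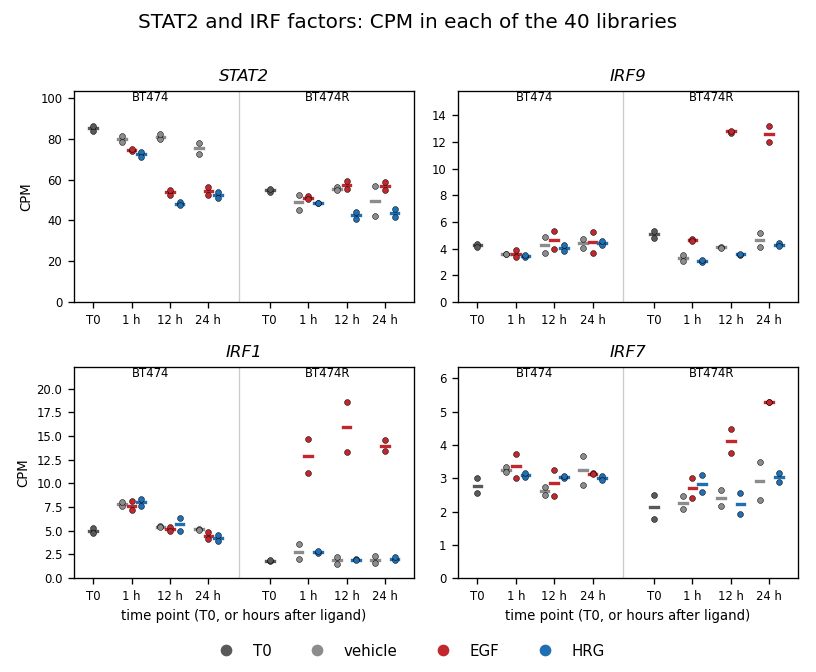
CPM of STAT2, IRF9, IRF1 and IRF7 in every library, by time (x axis) for each line and ligand. Points are single libraries and short bars mark the mean of 2 libraries. IRF1 in BT474R with EGF is at 11.1 to 14.7 CPM at 1 h, above the vehicle libraries at 2.0 and 3.56 CPM, and IRF9 with EGF at 24 h is at 12.0 and 13.2 CPM, above vehicle at 5.15 and 4.12 CPM.

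No interferon gene was measurable in BT474R. All 22 interferon genes lay within the detection limit in each group, with 20 counts over the 20 BT474R libraries together, and none entered the test. Their summed level was 0.0381 to 0.0819 CPM with EGF at 24 h and 0.0458 to 0.078 CPM in vehicle. Interferon made by few cells, or before the sampled times, was not detectable at this depth. Of the 9 interferon receptor and kinase genes, 12 h of EGF left 2 higher and 1 lower, and 24 h left 2 higher, where 12.0% and 17.3% of all genes were called. Those at 24 h were IFNGR1 (log2 change 0.36) and IFNAR2 (0.27, adjusted p = 0.0499), the latter lost without the first vehicle library (0.20, adjusted p = 0.322) and without the first EGF library.

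Of 11 RNA and DNA sensors and adaptors, 10 were tested in BT474R, with 2 higher and 1 lower after 12 h of EGF, and 2 higher and 2 lower after 24 h, against the same 12.0% and 17.3% of all genes. IFIH1 (MDA5, a sensor of long dsRNA) rose by 0.95 and 0.98 on the log2 scale at 12 and 24 h, and ZBP1 rose by 3.60 at 24 h. MAVS, the adaptor of RIG-I and MDA5, fell by 0.25 and TRIM25 by 0.19 at 24 h. Without the first vehicle library IFIH1 alone of these 4 was called at 24 h. ZBP1 was also lost without the first EGF library, and MAVS and TRIM25 without the second. Of 5 feedback inhibitors of interferon signalling, none was called at 12 h and USP18, itself an interferon-stimulated gene, fell by 0.39 at 24 h (adjusted p = 0.00729), a call lost without the first vehicle library (-0.31, adjusted p = 0.121) and without the second EGF library.

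Of 24 other classical interferon-stimulated genes, 20 were tested in BT474R. With EGF, 12 rose after 12 h with none lower, and 13 rose after 24 h with 1 lower, MX2. Of all genes, 12.0% and 17.3% were called in either direction. Without either vehicle library at 24 h 13 were higher, and MX2 was no longer called without the first of them (-0.26, adjusted p = 0.207) or without either EGF library. BST2 (tetherin) had 5 and 0 counts in vehicle at 24 h and 141 and 132 with EGF (5.77 and 5.02 CPM), a log2 change of 5.71 ± 0.555. IFI44 changed by 5.05 ± 0.605, TRIM22 by 4.12 ± 0.457 and RSAD2 (viperin) by 2.15 ± 0.401. For the comparisons that follow, 2.78% of all genes were called with HRG in BT474R at 24 h. The EGF effect between lines was called for 1.96% of all genes at 12 h and 4.01% at 24 h. With HRG at 24 h none of the 20 rose and 1 fell, HELZ2, which was lost without the first vehicle library (adjusted p = 0.140) or the second HRG library (0.115), whereas 3 fell without the first HRG library. By the test of the difference between lines, 6 of 22 at 12 h and 11 of 22 at 24 h had a larger EGF effect in BT474R, and 8 to 11 at 24 h without each library in turn.

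Luminal markers moved in the same libraries. With EGF at 24 h in BT474R, GATA3 fell by 2.00 and ESR1 by 1.27 on the log2 scale, and KRT18 and KRT8 rose by 0.82 and 0.45. Of all genes, 17.3% were called in this comparison. In all 4 of 10 luminal markers rose and 4 fell, or 2 and 3 without the first vehicle library, when KRT8 was not called (0.26, adjusted p = 0.194), and 3 and 3 without the second EGF library. The luminal sum stayed at 12800 to 13100 CPM with EGF and 12900 to 13200 CPM in vehicle, and the immune markers summed to 0 to 0.0381 CPM with EGF. Among endothelial markers PECAM1 and KDR were called higher, though neither was without the first vehicle library and PECAM1 was not without the second or the first EGF library, with a summed list of 11.5 to 12.0 CPM against 9.01 to 10.2 CPM, and their part in the result was not tested.

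The members did not share 1 profile over the 20 groups. On mean log2 CPM, OAS2 and IFIT3 had a Pearson correlation of 0.960, OAS2 and IFIT2 0.955 and IFIT2 and IFIT3 0.942. OAS3 went with IFIT1 (0.963) and IFIT5 (0.899), and these 3 genes had lower means in each BT474R group other than EGF at 12 and 24 h than in any BT474 group, whereas OAS1 and OAS3 gave 0.069. These correlations describe 20 group means that share lines and ligands. The 10 non-members closest to the members' mean profile, among 16653 genes, were ETV7 (0.945), IFITM1, TRIM22, a copy row of PSMB9, ISG15, APOL6, RSAD2, HLA-B, GBP2 and IFI44 (0.880). Ranked by Spearman's rho, 5 of these 10 were again among the first 10.

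The genes lie in clusters, OAS1, OAS3 and OAS2 on chromosome 12, OASL elsewhere on it, and the 4 IFIT members on chromosome 10. DTX1, a neighbour of the OAS cluster, measured 4.51 and 5.69 CPM with EGF and 3.57 and 3.83 CPM in vehicle in BT474R at 12 h, without overlap, and 2.87 and 3.31 CPM against 2.57 and 3.07 CPM at 24 h, with overlap. The annotated span of LIPA, a lysosomal lipase gene, overlaps all 4 IFIT members. LIPA measured 33.0 CPM with EGF and 31.1 CPM in vehicle at 12 h, and 63.8 CPM and 47.0 CPM at 24 h. Whether counting used strand is not given in the sources used here, so reads from LIPA and the IFIT genes may not be separated where they overlap, and its part in the result was not tested. From vehicle to EGF at 12 h, IFIT1 went from 0 and 1 counts to 12 and 9. IFIT2 went from 9 and 6 to 71 and 61, and IFIT3 from 1 and 1 to 159 and 116. IFIT5 went from 13 and 23 to 80 and 39. At 24 h IFIT1 went from 1 and 1 counts to 11 and 4, and IFIT2 from 10 and 8 to 248 and 258. IFIT3 went from 0 and 2 to 215 and 166, and IFIT5 from 42 and 27 to 82 and 53.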

How the data were processed

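Gene counts were deposited by the authors as a table of raw, whole-number counts for 40 libraries. Per the labels and the study's methods, reads of 101 bases were trimmed with Trim Galore 0.6.6, aligned to GRCh38.p13 and counted with featureCounts (Rsubread 2.6.4). The annotation release, strand setting and treatment of reads with several matches are not given in the sources used here.

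Groups were taken from the labels. edgeR 4.0.16 (R 4.3.3) with TMM scaling fitted a quasi-likelihood model in each line (20 libraries) and over both lines for T0 and for differences between lines. Genes with at least 1 count in 10 libraries of a line, or 20 of both, were tested (25146, 24287 and 24641 genes), and p-values were adjusted by Benjamini-Hochberg over all of them, with a threshold of 0.05. The SE is the log2 change divided by the square root of F. Fitted changes use edgeR's default prior count and are no bound where a group lies within 3 counts per library. A prior count of 2 was used only for log2 CPM, in the profiles and in the deviations of same-numbered libraries. Ratios compare summed counts over summed totals with exact 95% intervals. On simulated BT474R counts (23956 genes), 29 of 50 genes changed 2-fold and 35 of 50 changed 4-fold were called. Every gene was drawn with the same dispersion, 0.003, so these shares need not hold for genes or libraries that vary more.

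Named genes were all 8 members, fixed STAT and IRF genes, up to 4 genes per list with the largest called change for EGF in BT474R at 24 h, the 10 genes closest in profile, and the neighbours, and some of the genes this rule takes in are not reported here. HELZ2 and MX2 were added after their values were seen. The members and lists were chosen with earlier results of these data known. Alternatives were DESeq2 1.42.0, its size factors, filterByExpr, no filter, other sets of libraries, a replicate block and leaving out each library. When a library was left out of the fit over both lines, the gene set and dispersion trend of the full fit were kept. Summing copy rows did not apply, as there were 0 for the members. The family relatives IFIT1B, with 1 count over all libraries, and IFIT1P1 were not tested.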

Additional observations from a re-analysis of the deposited data

Results flagged for a closer look

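The EGF effect on 6 members at 12 h and on 5 at 24 h differed between BT474R and BT474 by a test of the difference itself, edgeR's quasi-likelihood interaction test with Benjamini-Hochberg adjustment. Of all tested genes, 1.96% were called by this test at 12 h and 4.01% at 24 h. At 12 h the adjusted p was 0.00167 for OAS1, 7.8e-05 for OAS2, 8.45e-11 for OAS3, 0.041 for IFIT1, 0.000139 for IFIT2 and 3.88e-06 for IFIT3. At 24 h it was 0.00155 for OAS1, 2.79e-06 for OAS2, 6.48e-12 for OAS3, 2.18e-09 for IFIT2 and 1.69e-07 for IFIT3. The log2 difference was positive, larger in BT474R, in each case, from 2.16 (OAS3) to 6.58 (IFIT3) at 12 h and from 2.21 (OAS3) to 7.28 (IFIT3) at 24 h. The values for OAS2 and IFIT3 depend on the prior count, as their BT474R vehicle libraries lay within the limit. The IFIT1 call and both OAS1 calls were lost in some fits that left out a library, and DESeq2 gave IFIT1 no adjusted p.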

How the results depend on the processing

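Of 1456 member values under other tools, scalings, filters and sets of libraries, 95 had no adjusted p, 93 of them with DESeq2, among these 3 that edgeR called (IFIT1 with EGF in BT474R at 12 and 24 h and between lines at 12 h). Of the other 1361, 1328 kept their direction and side of the threshold, 20 passed it anew and 13 no longer did, and of 1120 values without a library these were 1088, 8 and 24. No called value changed sign. The number of members called with EGF in BT474 at 24 h went from 1 to 0 with DESeq2, with both lines in 1 fit and with only the groups compared. From T0 to vehicle at 24 h it went from 0 to 1 in BT474 (OAS3) with DESeq2 size factors, filterByExpr, no filter, only the groups compared and the replicate block, and in BT474R (IFIT5) with no filter. With HRG in BT474R at 12 h it went from 0 to 1 (OAS3) with no filter and with both lines in 1 fit. For HRG against EGF in BT474R at 24 h it went from 6 to 0 with only the groups compared. Leaving out libraries gave 0 to 1 members for EGF at 12 h, HRG at 24 h and vehicle against T0 in BT474, HRG in BT474R at 24 h and the HRG effect between lines at 24 h, and 0 to 2 for EGF in BT474 at 24 h. The cause was not tested. Replicate numbers were not taken as pairs: over 19 pairs of groups the same-numbered libraries' deviations correlated at -0.094 to 0.399, 5 of them over 0.1. The replicate block changed the number of all genes called by 0.968 to 1.36 times and the member count also for HRG against EGF in BT474R at 24 h (6 to 7) and the EGF effect between lines at 12 h (6 to 7). With EGF in BT474R at 24 h the block gave 6 as before, but IFIT5 (adjusted p = 0.0440) in place of IFIT1 (0.0530). Counts of the other gene lists without each library of BT474R at 24 h were added after seeing the data and are given with those lists. The number of all genes called moved by over 1.5 times under at least 1 of these settings in 18 comparisons, given here as the main number and the lowest and highest of the others: EGF in BT474 at 1 h 550 (240 to 769), HRG against EGF in BT474 at 12 h 545 (259 to 1242), HRG against EGF in BT474 at 24 h 193 (12 to 402), the EGF effect at 24 h against 12 h in BT474 130 (31 to 230). In the same way it was for EGF in BT474R at 1 h 111 (114 to 279), EGF in BT474R at 12 h 2910 (2548 to 5176), HRG in BT474R at 1 h 41 (41 to 151), HRG in BT474R at 12 h 1000 (566 to 1606), HRG in BT474R at 24 h 675 (0 to 1147), HRG against EGF in BT474R at 12 h 345 (239 to 628), HRG against EGF in BT474R at 24 h 1258 (0 to 1710), the EGF effect at 24 h against 12 h in BT474R 45 (47 to 261). Between the lines it was for the EGF effect between lines at 1 h 34 (29 to 178), the EGF effect between lines at 12 h 484 (450 to 1282), the EGF effect between lines at 24 h 989 (553 to 1107), the HRG effect between lines at 1 h 134 (138 to 225), the HRG effect between lines at 12 h 1003 (902 to 2066), the HRG effect between lines at 24 h 821 (85 to 977). Without a library it moved by over 1.5 times in 79 of 140 fits. Ranked by Spearman's rho, 5 of the 10 genes closest in profile stayed among the first 10. Depth limits OASL and IFIT1, whose BT474R libraries held at most 12 counts, and OAS2 and IFIT3 in BT474R outside EGF at 12 and 24 h, with at most 3 and 2.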
